A study of Mus musculus with 62 samples.

Results

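The comparison described here is the change in liver RNA between weeks 2 and 4 in mice carrying a cachexia-inducing melanoma, less the change over the same weeks in mock-injected mice. It rests on 20 of the 62 libraries of the series, and 12160 of the 47643 gene symbols were expressed highly enough to be tested. The 4 groups of 5 libraries were cachectic melanoma livers at week 4 (CAC 4 weeks), cachectic melanoma livers at week 2 (CAC 2 weeks), mock-injected livers at week 4 (Con 4 weeks) and mock-injected livers at week 2 (Con 2 weeks). Another arm (NCAC) received melanoma cells that do not cause cachexia, with 5 libraries at each of these weeks. All were female mice, 2 months old at injection. The sample labels name the strain C57BL/6J and the study's design text names NCI Ath/nude, which would lack a normal T cell compartment, and which of them the livers came from is not settled. The melanoma lines are not named, and the extraction protocol also mentions an LLC tumour at 3 weeks that none of the groups contains. The labels call the libraries biological replicates, and each was taken as 1 animal.

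Cachexia is the loss of muscle and fat that accompanies some tumours, and the liver takes part in it through the acute phase response. In that response hepatocytes exposed to cytokines of the interleukin 6 and interleukin 1 families raise the output of plasma proteins that bind haemoglobin, iron carriers, bacterial lipid and proteases. STAT3 and proteins of the C/EBP family are the transcription factors best known for driving the genes concerned.

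Between weeks 2 and 4, 8 genes rose in the CAC arm relative to the Con arm and none fell (limma, Benjamini-Hochberg adjusted p under 0.05). These 8 were 0.0658% of the genes tested. Of these, 4 encode acute phase plasma proteins. They are Hp, the haptoglobin that binds free haemoglobin, Lbp, the protein that carries bacterial lipopolysaccharide, Itih4, an inter-alpha-trypsin inhibitor heavy chain, and C4b, a component of the complement cascade. The others were Slc37a1, a sugar phosphate exchanger of the endoplasmic reticulum, Cpne8, a calcium-dependent phospholipid-binding copine, Inf2, a formin that assembles and severs actin filaments, and Slc39a1, the zinc importer ZIP1. The differences ran between 0.55 and 1.55 on the log2(TPM + 1) scale, where TPM is transcript abundance scaled to a fixed library total, against a median of 0.03 over all genes tested. At an unadjusted p under 0.05 there were 351 genes higher and 332 lower, and the smallest adjusted p among lower genes was 0.094. In bulk tissue, fewer cells of a type and less RNA per cell cannot be told apart.

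Promoter sequence is shown for 5 acute phase genes, each of which holds a match to a motif searched. They are examples with matches and not a sample of the list, and only Itih4 of them was among the 8 that rose. The list was searched because its measured differences all lay above 0 and its best known regulators have short recognition sequences. The windows run 250 bases before to 50 bases after the transcription start, from RefSeq on GRCm38.p6. The motifs were searched on both strands with TTCNNNGAA for STAT proteins and TTGNGCAA or its reverse complement TTGCNCAA for C/EBP proteins, and matches are in capitals. Of the 8 genes that rose, 5 had a window in the table (Slc37a1, Cpne8, Itih4, Inf2 and Slc39a1) and Itih4 alone of these held a STAT match. None of these 5 held the C/EBP sequence. Among the 31 measured members of an acute phase list, 23 had a window, of which 5 held the STAT sequence and 8 the C/EBP sequence. The 8 were Fga, Fgb, Lcn2, Orm2, Orm3, Saa1, Saa2 and Saa4. The Orm and Saa genes are families of related copies, so these 8 are not separate cases. Over all 27025 genes in the table, 9.55% held the STAT sequence and 3.37% the C/EBP sequence, and over the 9077 of them that were tested the shares were 8.57% and 3.22%. The Itih4 window (chr14:30886226-30886525, plus strand) has its STAT match beginning 51 bases before the start. In Fgb, the fibrinogen beta chain (chr3:83049814-83050113, minus strand), the STAT match begins 162 bases and the C/EBP match 80 bases before the start. The C/EBP matches of Orm2, orosomucoid 2 (chr4:63362199-63362498, plus strand), Lcn2, lipocalin 2 (chr2:32387690-32387989, minus strand), and Saa1, serum amyloid A1 (chr7:46742931-46743230, minus strand), begin 120, 216 and 182 bases before it. A match is a string of letters in this window and was not tested for binding.
Itih4: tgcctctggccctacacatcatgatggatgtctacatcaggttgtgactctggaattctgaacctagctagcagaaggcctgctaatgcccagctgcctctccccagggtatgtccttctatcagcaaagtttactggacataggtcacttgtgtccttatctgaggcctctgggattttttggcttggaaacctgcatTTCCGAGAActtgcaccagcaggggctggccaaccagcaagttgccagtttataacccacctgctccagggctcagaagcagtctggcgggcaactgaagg
Fgb: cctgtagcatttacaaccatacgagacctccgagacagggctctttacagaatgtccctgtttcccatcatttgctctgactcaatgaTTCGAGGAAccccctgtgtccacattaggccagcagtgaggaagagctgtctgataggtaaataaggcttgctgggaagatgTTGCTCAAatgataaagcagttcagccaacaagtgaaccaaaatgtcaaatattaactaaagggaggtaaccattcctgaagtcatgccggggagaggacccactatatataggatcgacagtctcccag
Orm2: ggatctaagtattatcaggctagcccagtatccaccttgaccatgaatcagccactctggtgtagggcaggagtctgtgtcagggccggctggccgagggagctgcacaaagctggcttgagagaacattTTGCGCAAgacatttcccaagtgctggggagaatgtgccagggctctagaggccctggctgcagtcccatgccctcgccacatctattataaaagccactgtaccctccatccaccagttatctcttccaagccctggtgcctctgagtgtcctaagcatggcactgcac
Lcn2: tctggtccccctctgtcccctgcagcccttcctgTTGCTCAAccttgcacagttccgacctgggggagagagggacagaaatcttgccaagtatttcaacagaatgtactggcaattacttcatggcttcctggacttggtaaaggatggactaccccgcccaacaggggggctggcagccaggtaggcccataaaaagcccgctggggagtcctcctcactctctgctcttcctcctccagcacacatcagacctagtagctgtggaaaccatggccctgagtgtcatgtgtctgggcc
Saa1: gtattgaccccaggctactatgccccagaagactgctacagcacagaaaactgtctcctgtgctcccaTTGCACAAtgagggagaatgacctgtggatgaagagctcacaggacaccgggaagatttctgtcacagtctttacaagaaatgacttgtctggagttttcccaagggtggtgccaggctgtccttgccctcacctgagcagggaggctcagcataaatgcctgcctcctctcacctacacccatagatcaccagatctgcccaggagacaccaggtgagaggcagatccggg

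Each of the 20 libraries carried liver RNA, with summed hepatocyte markers between 161048 and 202275 TPM. Replicate 3 of CAC at 2 weeks stood above its group for several acute phase genes, as given with each. Pancreatic acinar genes were high in 3 of the 20 libraries. Ctrb1, the digestive protease precursor chymotrypsinogen B, was at 292, 57.8 and 377 TPM in replicates 1, 3 and 4 of CAC at 2 weeks, and at no more than 5.78 TPM in the 17 others. The summed pancreatic list of 19 genes ranged over 7.56 to 37.8 TPM in CAC at 4 weeks and 12.4 to 2001 TPM at 2 weeks, against 17.5 to 38.6 TPM and 28.03 to 33.1 TPM in Con at 4 and 2 weeks. Without all libraries of at least 10 TPM Ctrb1, a setting chosen after the values were seen, 1 gene was called, Prtn3, and none of the 8. The 8 differences in that fit lay between 0.55 for Slc39a1 and 1.69 for Slc37a1, with adjusted p-values between 0.0505 for Lbp and 0.335 for Cpne8. The acute phase median was then 1.27, with 29 of 31 above 0 and none called. Only replicates 2 and 5 of CAC at 2 weeks remained in that fit. Leaving out replicate 3 of that group alone gave a median of 1.24. Over the 3 settings that left out libraries with other tissue, the median ranged between 0.99 and 1.27. The part of pancreatic tissue in these calls was not tested.

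Hp (chr8:109575128-109579172, minus strand, on mm10) had the highest levels of the 8. Its level was 6268, 15348, 7119, 9674 and 5948 TPM in the CAC libraries at 4 weeks, against 2804, 4081, 6802, 4315 and 3279 TPM at 2 weeks. Con livers had 2264, 1830.1, 2801, 1846 and 2262 TPM at 4 weeks, against 2615, 3153, 2877, 3346 and 3041 TPM at 2 weeks. All 5 CAC libraries of week 4 lay above every Con library, and CAC replicate 3 of week 2 reached into their range. The difference between the steps was 1.495 ± 0.33 (SE, adjusted p = 0.0463), made of 1.03 in CAC and -0.46 in Con.

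Lbp (chr2:158306493-158332852, plus strand) was at 82.9, 168, 88.5, 130.3 and 78.6 TPM in CAC livers at 4 weeks, against 40.05, 43.4, 80.3, 61.7 and 49.9 TPM at 2 weeks. In Con livers it was at 53.5, 35.00, 34.1, 34.2 and 33.1 TPM at 4 weeks, against 49.7, 51.2, 42.4, 54.4 and 49.2 TPM at 2 weeks. The CAC groups overlapped through replicate 3 of week 2 alone, and Con replicate 1 of week 4 stood above the other 4 libraries of its group. Its difference of 1.35 ± 0.26 had an adjusted p of 0.0163, with steps of 0.96 in CAC and -0.39 in Con.

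Itih4 (chr14:30886476-30902353, plus strand), whose promoter holds the STAT sequence shown, had 2332, 3045, 2847, 3881 and 2459.7 TPM in CAC livers at 4 weeks, against 1181, 1592, 2222, 1661 and 1391 TPM at 2 weeks. The Con livers had 1492, 1249, 1289, 1148 and 1141 TPM at 4 weeks, against 1224, 1708, 1294, 1564 and 1595 TPM at 2 weeks. No library of the other 3 groups reached the lowest CAC library of week 4. The steps were 0.86 in CAC and -0.22 in Con, a difference of 1.08 ± 0.23 (adjusted p = 0.0361).

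C4b (chr17:34728380-34743882, minus strand) had 735, 734, 877, 726 and 843 TPM in CAC livers at 4 weeks, against 440.0, 589.9, 613, 520.0 and 453 TPM at 2 weeks. Con values were 414, 454, 365, 461 and 338 TPM at 4 weeks, against 393, 546, 436, 511 and 518 TPM at 2 weeks. Here too the CAC libraries of week 4 lay above the 15 others. The difference of 0.83 ± 0.18 (adjusted p = 0.0463) joined a CAC step of 0.59 to a Con step of -0.24. Mouse C4b has a closely similar neighbour, C4a, and how reads were divided between them is not given in the sources used here.

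Slc37a1 (chr17:31286792-31350739, plus strand) showed the largest difference of the 8 at a low level of expression. CAC livers had 5.53, 8.65, 10.9, 9.33 and 8.14 TPM at 4 weeks, against 2.05, 2.67, 6.22, 2.62 and 2.61 TPM at 2 weeks, and Con livers 3.397, 2.100, 2.16, 1.33 and 0.872 TPM at 4 weeks, against 2.72, 5.69, 2.31, 1.71 and 1.69 TPM at 2 weeks. In each week 2 group 1 library stood apart, CAC replicate 3 and Con replicate 2, and both exceeded the lowest CAC library of week 4. The difference was 1.55 ± 0.31 (adjusted p = 0.0251), with steps of 1.21 in CAC and -0.33 in Con.

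Cpne8 (chr15:90487482-90679432, minus strand) was likewise a low transcript, at 4.402, 9.74, 3.58, 7.31 and 4.04 TPM in CAC livers at 4 weeks, against 1.86, 3.08, 2.69, 2.06 and 1.99 TPM at 2 weeks. Con livers held 1.73, 1.38, 1.04, 1.39 and 0.902 TPM at 4 weeks, against 1.63, 1.69, 1.59, 1.44 and 1.69 TPM at 2 weeks. Its CAC libraries of week 4 were above all 15 others, with replicates 2 and 4 the highest. The steps of 0.96 in CAC and -0.20 in Con gave a difference of 1.16 ± 0.25 (adjusted p = 0.038).

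Slc39a1 (chr3:90248172-90253612, plus strand) gave the smallest difference of the 8. Its values were 79.2, 79.2, 84.3, 86.6 and 78.4 TPM in CAC livers at 4 weeks, against 58.9, 65.7, 70.1, 66.9 and 64.5 TPM at 2 weeks, and 57.9, 57.7, 53.5, 51.1 and 49.9 TPM in Con livers at 4 weeks, against 58.7, 70.5, 62.6, 62.1 and 63.7 TPM at 2 weeks. The 5 CAC libraries of week 4 lay above the other 15. The step was 0.32 in CAC and -0.23 in Con, a difference of 0.55 ± 0.10 (adjusted p = 0.0163).

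Inf2 (chr12:112588784-112615557, plus strand) owed nearly as much of its difference to the Con arm as to the CAC arm. CAC livers had 21.6, 18.6, 24.1, 16.9 and 23.6 TPM at 4 weeks, against 12.6, 15.3, 21.2, 14.8 and 12.5 TPM at 2 weeks. The Con libraries had 14.1, 13.4, 12.6, 11.3 and 11.1 TPM at 4 weeks, against 13.7, 19.7, 15.9, 18.5 and 16.8 TPM at 2 weeks. The CAC groups overlapped through replicate 3 of week 2, Con replicates 2 and 4 of week 2 exceeded the lowest CAC library of week 4, and the CAC libraries of week 4 lay above all Con libraries of that week. The difference of 0.85 ± 0.17 (adjusted p = 0.031) joined 0.44 in CAC, which missed the threshold on its own (adjusted p = 0.079), to -0.40 in Con.

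**Figure D1:**
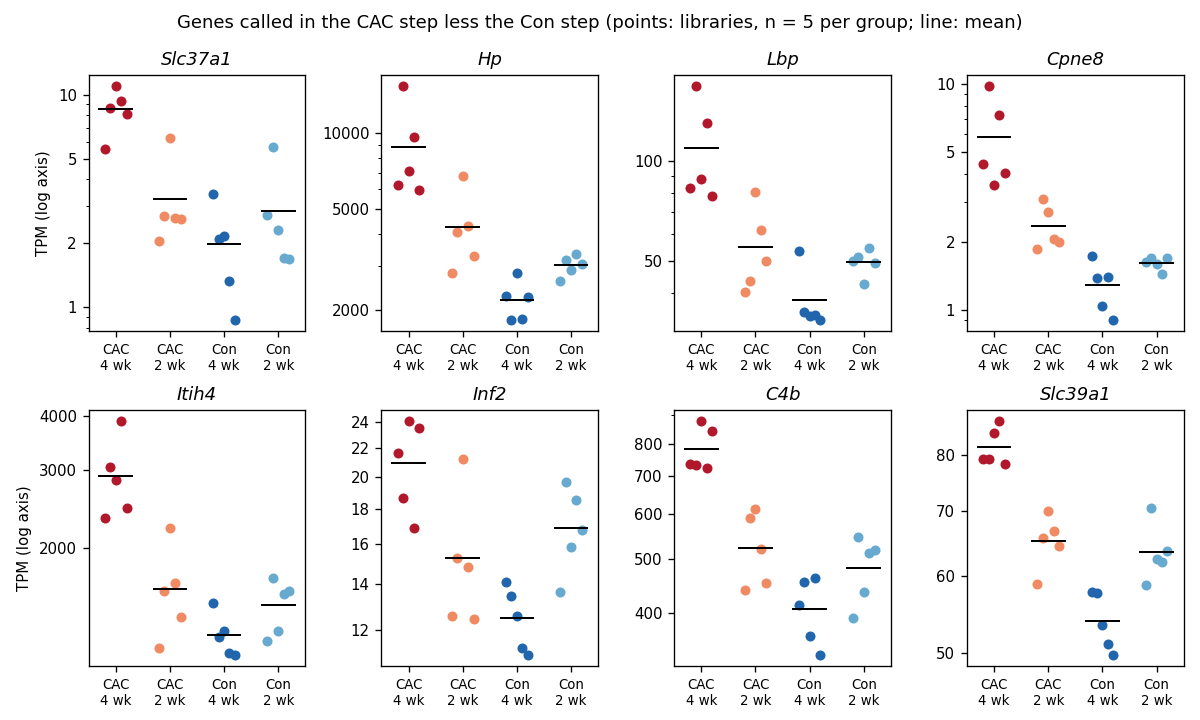
TPM on a log axis for the 8 genes that rose, in the 5 libraries (points) and the mean (line) of each of the CAC and Con groups at 4 and 2 weeks. For Cpne8, Itih4, C4b and Slc39a1 every CAC library of week 4 lies above the other 15 libraries, and in all 8 genes the Con mean of week 4 is below that of week 2.

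Each of the 8 differences joined a positive CAC step to a negative Con step. The Con steps lay between -0.46 for Hp and -0.20 for Cpne8, and none of the 12160 genes passed the threshold for the Con step alone (limma, 0%, with 1033 genes at an unadjusted p under 0.05). The CAC step alone was called for 7 of the 8, all but Inf2, among 64 genes that rose and 8 that fell, or 0.592% of those tested. At week 2 the CAC and Con livers differed by between -0.15 for Inf2 and 0.44 for Hp, and none of the 8 passed that test, in which 1 gene (0.00822%), the predicted gene Gm2000, was called. At week 4 all 8 passed, with differences between 0.59 for Slc39a1 and 1.93 for Hp, where 1.91% of genes were called. These tests share libraries with the main one and are given as values beside it. For all 8 genes the CAC libraries of week 4 lay above every Con library of that week, against 1.64% of all genes. They lay above all 5 of week 2 for 4 of the 8, against 1.37% of all genes, and above all 15 others for the same 4, against 0.288%.

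The number called turned on single libraries. It was 0 without CAC 2 weeks replicate 1, Con 2 weeks replicate 2, or Con 4 weeks replicate 4 or 5, and 34 without CAC 2 weeks replicate 3. Without CAC 4 weeks replicates 1 to 5 in turn it was 15, 1, 3, 5 and 13. It was 2 without CAC 2 weeks replicate 4 or 5, 14 without Con 2 weeks replicate 1, 5 without its replicate 3, and 3 without its replicate 4 or 5. Over these 20 fits Slc39a1 was called in 16, Lbp in 15, Slc37a1 in 12, Inf2 in 10, Itih4 in 9, Cpne8 in 8, and Hp and C4b in 6 each. No gene was called when only the 4 groups were fitted, or with the 20 most abundant genes removed. The differences of the 8 kept their sign, for example between 1.18 and 1.497 for Lbp and between 0.51 and 0.58 for Slc39a1.

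**Figure D2:**
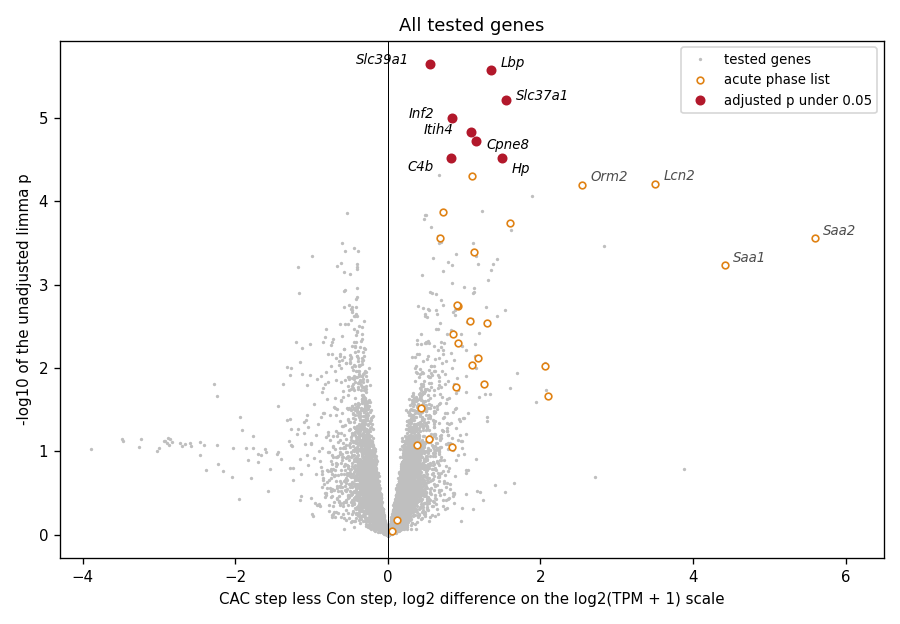
Difference between the CAC and Con steps (x axis, log2) against the unadjusted limma p (y axis, -log10) for the 12160 genes tested, with the 8 called genes filled and the acute phase list in open orange circles. Every acute phase member lies to the right of 0, and Saa1, Saa2, Lcn2 and Orm2 have larger differences than the called genes at a larger p.

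The acute phase list lay higher as a whole. Of its 32 genes 31 were measured, 4 of these passed the test and all 31 differences were above 0, while 55.2% of all genes were. At an unadjusted p under 0.05 there were 26 of 31 higher and 0 lower, against 2.89% higher over all genes. The list was chosen with earlier results of these data known and holds families of close copies. Its members are therefore not separate cases, and these shares are not a test of the list. The list's median difference was 1.08, against 0.03 over all genes. Under the scalings tried, its median was 1.06 under median-of-ratios rescaling, 1.01 both after quantile normalization and after removing the 20 highest genes, and under quantile normalization 30 of the 31 were above 0. The calls in the list then numbered 1 under quantile normalization and 0 under median-of-ratios rescaling or with the 20 highest genes removed. On the CAC step alone 15 of the 31 rose, a share to be read against 0.526% of all genes. The Con step of the list had a median of -0.15, with 7 of 31 above 0, against 46.6% of all genes, and none called. Members that other lists also hold include Lcn2 in the neutrophil list, Mt1 and Mt2 in the zinc list, and C4b and C3 in the complement list.

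The largest differences in the list belonged to genes that missed the threshold, with wide spread between libraries. Saa1 encodes a lipoprotein-bound acute phase protein, and its level was 3234, 21193, 5373, 14225 and 2235 TPM in CAC livers at 4 weeks, against 198, 199.5, 3055, 404 and 190.3 TPM at 2 weeks. Con livers had 109, 51.6, 185, 50.1 and 49.4 TPM of Saa1 at 4 weeks, against 93.6, 74.02, 78.9, 110.2 and 155 TPM at 2 weeks. Replicate 3 of the CAC group at week 2 was far above its 4 companions and inside the range of week 4. The difference was 4.41 ± 1.21 (adjusted p = 0.151), and for the near-identical Saa2 it was 5.60 ± 1.44 (adjusted p = 0.13). Reads shared between Saa1 and Saa2 make the division between the pair uncertain.

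Lcn2, which sequesters bacterial iron carriers and is made by hepatocytes and neutrophils, had 186, 875, 212, 661 and 169 TPM in CAC livers at 4 weeks, against 21.8, 47.1, 231, 53.1 and 23.6 TPM at 2 weeks. Con livers had 17.2, 6.88, 29.3, 15.1 and 13.95 TPM at 4 weeks, against 30.7, 19.5, 18.4, 25.7 and 48.99 TPM at 2 weeks. Orm2, an orosomucoid that binds small molecules in plasma, had 613, 1137, 695, 1858 and 741 TPM in CAC livers at 4 weeks, against 125, 141, 578, 156 and 154 TPM at 2 weeks. For both genes CAC replicate 3 of week 2 was again the highest of its group by a wide margin, and it overlapped Lcn2 but not Orm2 values of week 4. In Con livers Orm2 was at 119, 45.5, 120.1, 60.4 and 52.2 TPM at 4 weeks, against 72.5, 83.2, 117, 57.4 and 129 TPM at 2 weeks. The differences were 3.50 ± 0.81 for Lcn2 and 2.54 ± 0.59 for Orm2 (adjusted p = 0.0643 for each). Orm1, Orm2 and Orm3 are close copies, so their division is uncertain too.

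Without that week 2 library, CAC replicate 3, 13 of the 31 acute phase genes were called in place of 4, among 34 called of the 12160 genes, and the list's median was 1.24. Among those called then were Saa1, Saa2, Lcn2, Orm2, Hpx, Lrg1, C3, Fgb and Serpina10. The library was kept, since nothing in its labels sets it apart.

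**Figure D3:**
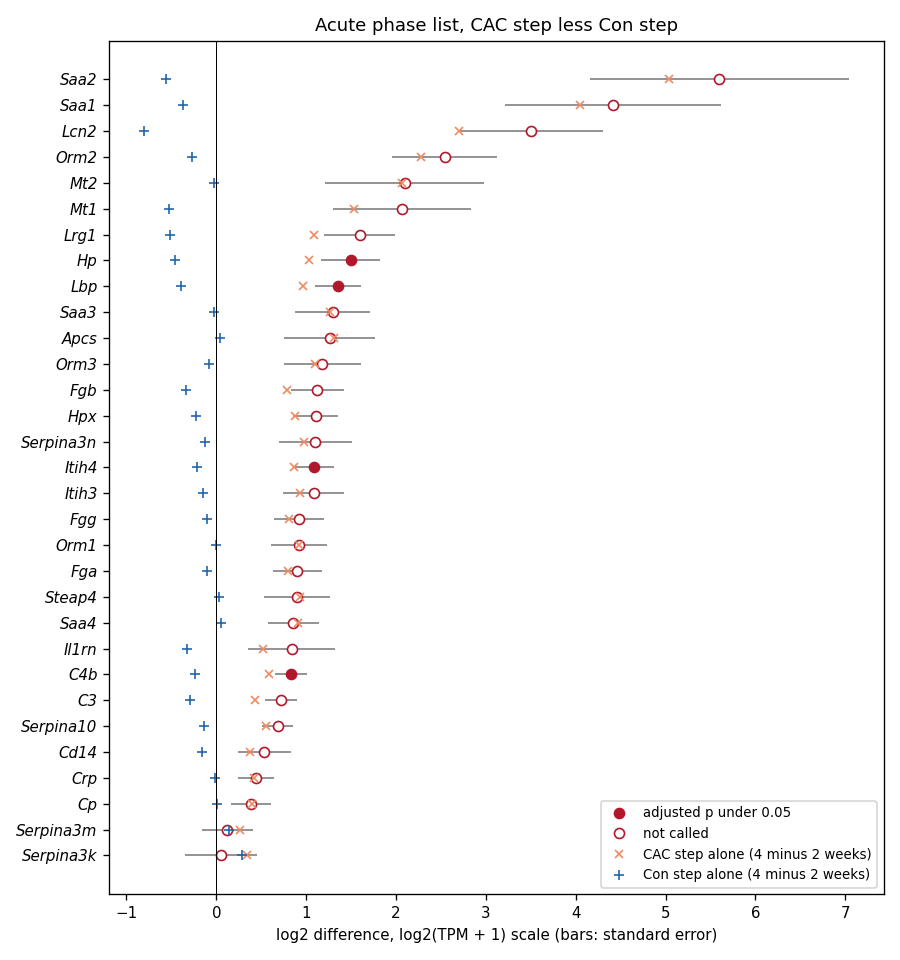
Difference between the CAC and Con steps for the 31 measured acute phase genes (circles, bars show the standard error, filled when adjusted p was under 0.05), with the CAC step (crosses) and the Con step (plus signs) alone, all on the log2(TPM + 1) scale. All circles are above 0, and 24 of the Con steps are below 0.

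Other acute phase genes missed the threshold, of which Hpx came nearest. Hpx, the haemopexin that binds free haem, had 11024 ± 3457 TPM in CAC livers at 4 weeks and 5945 ± 1617 TPM at 2 weeks, against 3927 ± 723 and 4579.6 ± 571 TPM in Con livers at 4 and 2 weeks (SD, n = 5 each). Its difference was 1.11 ± 0.25 (adjusted p = 0.0605). The secreted glycoprotein gene Lrg1 had a difference of 1.60 ± 0.40 (adjusted p = 0.105). For the fibrinogen chains Fga, Fgb and Fgg the differences were 0.90, 1.13 and 0.92, with adjusted p-values of 0.279, 0.143 and 0.279. The smallest differences in the list were those of the protease inhibitors Serpina3k at 0.051 and Serpina3m at 0.12, members of a family of close copies.

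In the complement and coagulation list 1 of 39 measured genes rose, against 0.0658% of all genes. That gene was C4b, which the acute phase list also holds. At an unadjusted p under 0.05, 12 were higher, against 2.89% of all genes. The 12 became 7 with the 20 highest genes removed and between 7 and 15 with 1 library left out. The list's median was 0.23, and 0.15 with the 20 highest genes removed. C3, on which all complement pathways converge, had a difference of 0.72 ± 0.17 (adjusted p = 0.094). Plg, the plasminogen precursor of the fibrin-dissolving plasmin, had 0.45 ± 0.13 (adjusted p = 0.167), and Cpb2, a carboxypeptidase that slows that dissolution, had 0.56 ± 0.16 (adjusted p = 0.227). Cpb2 was called on the CAC step alone, at 0.53 (adjusted p = 0.0175).

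No gene of the interleukin 6 and STAT3 list passed, and 5 of its 20 members were higher at an unadjusted p under 0.05, against 2.89% of all genes, with 1 lower, against 2.73%. The list's median of 0.33 ranged between 0.30 and 0.52 with 1 library left out. Socs3, the feedback inhibitor that STAT3 induces, had 24.9, 30.7, 25.9, 22.9 and 20.6 TPM in CAC livers at 4 weeks, against 5.23, 10.5, 21.7, 13.4 and 5.99 TPM at 2 weeks. Con livers had 5.38, 3.28, 4.11, 3.72 and 2.39 TPM of Socs3 at 4 weeks, against 4.54, 5.81, 5.202, 6.22 and 4.08 TPM at 2 weeks. The CAC groups of Socs3 overlapped through replicate 3 of week 2, and its difference was 1.61 ± 0.41 (adjusted p = 0.117). Stat3 itself had 0.63 ± 0.19, the tumour necrosis factor receptor gene Tnfrsf1a 0.63 ± 0.19, and the oncostatin M receptor gene Osmr 0.62 ± 0.22. On the CAC step alone Socs3 (1.22, adjusted p = 0.0325) and Osmr (0.69, adjusted p = 0.0286) rose.

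The NF-kB and chemokine list had no called gene among 21 measured and a median of 0.16, which ranged between 0.10 and 0.24 with 1 library left out. The CAC step of the list had a median of 0.01, with 11 of 21 above 0. The Con step had a median of -0.13, with 16 of 21 below 0. For the difference between the steps, the smallest p-values belonged to the cytokine gene Il1b at 1.14 ± 0.39 and the leukocyte adhesion gene Icam1 at 0.69 ± 0.24 (adjusted p = 0.421 and 0.429). The neutrophil chemoattractant Cxcl1 had 1.60 ± 0.65 and the signalling inhibitor Irak3 0.43 ± 0.18.

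The neutrophil marker genes tested had positive differences between the steps, without a call. Of 15 markers 7 were expressed highly enough to be tested, all 7 differences were above 0 with a median of 1.02, and none was called. The other 8 were too low to be tested, and with no filter on level the median over the list was 0.32. With a pseudocount of 0.1 the median of the 7 was 1.93. The summed level of the 7 ranged over 206 to 979.5 TPM in CAC livers at 4 weeks and 27.02 to 279 TPM at 2 weeks, against 20.2 to 48.7 TPM and 32.3 to 56.8 TPM in Con livers at 4 and 2 weeks. In CAC livers at 4 weeks most of that sum was Lcn2, which the acute phase list also holds. Prtn3, the granule protease proteinase 3, had 17.5, 70.4, 20.7, 46.03 and 29.8 TPM in CAC livers at 4 weeks, against 1.11, 2.95, 34.4, 6.902 and 1.09 TPM at 2 weeks. In Con livers Prtn3 was at 2.31, 0.154, 0.777, 0.177 and 0.143 TPM at 4 weeks, against 0.442, 2.37, 0.901, 0.502 and 0.435 TPM at 2 weeks. Its difference of 2.84 ± 0.74 missed the threshold (adjusted p = 0.137). Other granule genes were close to 0, with Elane at no more than 0.629 TPM, Mpo at no more than 0.155 TPM and Ltf at no more than 0.162 TPM in any of the 20 libraries. S100a9, another gene abundant in neutrophils, had 17.7, 20.1, 11.8, 4.59 and 4.64 TPM in CAC livers at 4 weeks. CAC livers at 2 weeks had 2.58, 3.16, 9.05, 4.97 and 8.87 TPM. Con livers had 19.5, 9.69, 4.88, 2.65 and 4.83 TPM of S100a9 at 4 weeks. At 2 weeks Con livers had 13.7, 21.6, 7.88, 6.66 and 5.00 TPM. The CAC and Con libraries of week 4 overlapped for S100a9, and also for S100a8. The part of neutrophils in these differences was not tested.

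In the zinc list 1 of 10 measured genes was called, Slc39a1, against 0.0658% of all genes. The median was 0.32, with 7 of the 10 above 0 and 3 below. The metallothioneins, small zinc-binding proteins, had larger and more variable differences. Mt2 was at 1821, 5168, 2810.0, 2153 and 1547 TPM in CAC livers at 4 weeks, against 181, 458, 1314, 975 and 636 TPM at 2 weeks, and at 232, 60.6, 499, 82.96 and 461 TPM in Con livers at 4 weeks, against 248, 367, 62.9, 156 and 335 TPM at 2 weeks. Every CAC library of week 4 exceeded those of week 2, while the Con libraries spread widely within each week. The difference was 2.10 ± 0.89 (adjusted p = 0.695) for Mt2 and 2.07 ± 0.77 (adjusted p = 0.516) for Mt1. Slc39a14, an importer of zinc and iron, had 0.75 ± 0.34.

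Of the iron and haem genes none of 34 was called, and the list's median was 0.03, at -0.060 with the 20 highest genes removed and between -0.022 and 0.096 with 1 library left out. Tfr2, a hepatocyte sensor of iron-loaded transferrin, had 0.48 ± 0.12 (adjusted p = 0.0988), and the transferrin gene Trf 0.40 ± 0.16. Hamp, the hepcidin that blocks iron export, had 2212, 1539, 692, 142 and 1709 TPM in CAC livers at 4 weeks, against 1926, 2452, 2059.9, 2686 and 2315 TPM at 2 weeks. Its CAC libraries of week 4 reached both lower and nearly as high as those of week 2, and the difference was -0.91 ± 1.14 (adjusted p = 0.999).

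Cholesterol synthesis genes lay on the other side of 0, with no gene called. Of 25 measured genes 23 differences were below 0, 11 at an unadjusted p under 0.05 against 2.73% of all genes, and the median was -0.70. The CAC step of the list had a median of -0.33, with 21 of 25 below 0. Its Con step had a median of 0.28, with 21 of 25 above 0. For CAC against Con at 4 weeks the list's median was -0.19, against -0.05 over all genes. In that comparison 1 of the 25 was lower at an unadjusted limma p under 0.05. Msmo1, a sterol demethylating oxidase, averaged 87.1 ± 24.8 TPM in CAC livers at 4 weeks and 98.5 ± 13.03 TPM at 2 weeks, against 101 ± 32.7 and 50.9 ± 13.96 TPM in Con livers at 4 and 2 weeks (SD, n = 5 each). Its difference was -1.16 ± 0.34 (adjusted p = 0.227), of which -0.20 came from the CAC step and 0.95 from the Con step. The next pathway genes by p were Sc5d at -1.21 ± 0.41, Nsdhl at -1.02 ± 0.35 and Cyp51 at -1.13 ± 0.39. Sc5d, a late desaturase of the pathway, differed mainly through its CAC step of -1.08. The cholesterol list's median difference between the steps stayed between -0.80 and -0.66 under the other settings and between -0.89 and -0.52 with 1 library left out. In the fatty acid and triglyceride list of 28 genes the median was -0.32, with Me1, a source of NADPH for lipid synthesis, at -1.06 ± 0.42 and the acetyl-CoA synthetase Acss2 at -0.70 ± 0.31. That median ranged between -0.43 and -0.16 with 1 library left out.

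Respiratory chain genes had small negative differences and none was called. Of 76 nuclear-encoded subunits 69 lay below 0 with a median of -0.21, and 19 were lower at an unadjusted p under 0.05, against 2.73% of all genes. That number was 37 with the 20 highest genes removed and between 12 and 27 with 1 library left out. Uqcrb, a subunit of complex III, had the smallest p at -0.54 ± 0.13 (adjusted p = 0.094). Its mean was 282 ± 27.4 TPM in CAC livers at 4 weeks and 331 ± 18.4 TPM at 2 weeks, against 352 ± 49.6 and 283 ± 10.96 TPM in Con livers at 4 and 2 weeks (SD, n = 5 each). The electron carrier gene Cycs had -0.57 ± 0.16 and the ATP synthase subunit gene Atp5j -0.44 ± 0.12. On the CAC step alone the 76 had a median of -0.26, with 75 below 0 and 1 called lower. The Con step of the list had a median of -0.06, with 49 of 76 below 0. Of the 13 mitochondrially encoded transcripts 12 were below 0 with a median of -0.28, led by mt-Nd6 at -0.79 ± 0.28.

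Immune presentation genes had positive medians without calls. In the interferon list 36 of 39 differences were above 0 with a median of 0.28, and no member reached an unadjusted p of 0.05. On the CAC step alone the same list had a median of -0.06, with 14 of 39 above 0. On the Con step it had a median of -0.32, with 37 of 39 below 0. With 1 library left out its median for the main comparison ranged between 0.042 and 0.44, and without the libraries holding pancreatic or muscle transcripts it was between 0.47 and 0.51. Gbp2 and Gbp3, interferon-induced guanylate-binding proteins, had the smallest p-values at 0.72 ± 0.37 and 0.84 ± 0.45. Nlrc5, the activator of class I genes, had 0.79 ± 0.31 in a list of 19 whose median was 0.38, between 0.26 and 0.51 with 1 library left out. The CAC step of that list had a median of 0.03, with 10 of 19 above 0. Its Con step had a median of -0.26, with 15 of 19 below 0.

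Among lists of liver function no gene passed. The growth hormone and STAT5 list of 30 had a median of -0.45, which ranged between -0.59 and 0.033 with 1 library left out. Its smallest p belonged to Cish, a feedback inhibitor that STAT5 induces, at 2.06 ± 0.76 (adjusted p = 0.504). Drug-metabolising P450 genes had a median of -0.27 over 44, with Cyp2c68 at -0.50 ± 0.20, and bile acid genes -0.13 over 34, with the sterol hydroxylase Cyp27a1 at -0.63 ± 0.23. With 1 library left out the P450 median ranged between -0.32 and -0.14 and the bile acid median between -0.15 and -0.012. Hepatokines had a median of 0.06 over 29, and Fgl1, a fibrinogen-like secreted protein, stood at 0.87 ± 0.27 (adjusted p = 0.279). The hepatokine median changed sign, at -0.019 with the 20 highest genes removed, between -0.080 and -0.015 without the libraries holding pancreatic or muscle transcripts, and between -0.029 and 0.073 with 1 library left out. Of the apolipoprotein list the lipoprotein receptor gene Lrp1 had 0.90 ± 0.24 and Apoc1 -0.57 ± 0.17, around a median of 0.03 over 23, which ranged between 0.018 and 0.15 with 1 library left out. Extracellular matrix genes had a median of 0.12 over 26, with the membrane protease gene Mmp14 at 0.83 ± 0.29. That median was 0.044 with the 20 highest genes removed and between 0.034 and 0.20 with 1 library left out. Sinusoidal endothelial markers had a median of 0.35 over 17, with the scavenger receptor gene Stab2 at 0.60 ± 0.28, and the median ranged between 0.20 and 0.42 with 1 library left out. For CAC against Con at 4 weeks the median of these markers was 0.02, with 10 of 17 above 0. Their median summed level was 156 TPM in CAC and 186 TPM in Con livers at 2 weeks, and 233 and 219 TPM at 4 weeks.

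Single genes followed for liver metabolism did not pass either. The gluconeogenic genes Pck1 and G6pc had differences of 0.37 ± 0.41 and -0.38 ± 0.71. Igf1, the growth factor made under growth hormone, had 0.035 ± 0.18, and its binding protein gene Igfbp1 0.38 ± 1.01. The stress hormone genes Fgf21 and Gdf15 were low, with differences of -0.11 ± 0.42 and -0.021 ± 0.37. Alb, the albumin that falls in many acute phase responses, had 86628 ± 8873 TPM in CAC livers at 4 weeks and 82332 ± 9137 TPM at 2 weeks, against 85133 ± 7737 and 90349 ± 8185 TPM in Con livers at 4 and 2 weeks (SD, n = 5 each), a difference of 0.16 ± 0.16. Cyp7a1, the rate-limiting enzyme of bile acid synthesis, had -0.27 ± 1.04, the lipogenic regulator Srebf1 0.39 ± 0.39, the lipase inhibitor Angptl4 -0.48 ± 0.49 and the carbonic anhydrase gene Car3 -1.25 ± 0.87. The circadian regulators Per2 and Arntl had 0.77 ± 0.69 and -0.63 ± 0.80. Unadjusted limma p-values for these 13 genes lay between 0.16 for Car3 and 0.956 for Gdf15. Ttr, another plasma protein gene, was not called either. It had 5115, 3011, 4797, 276 and 5246 TPM in CAC livers at 4 weeks, against 6175, 6052, 5996, 6854 and 6863 TPM at 2 weeks. Con livers had 5834, 4857, 5723, 4374 and 7105 TPM of Ttr at 4 weeks, against 7449, 6823, 6665, 7635 and 2616 TPM at 2 weeks.

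**Figure D4:**
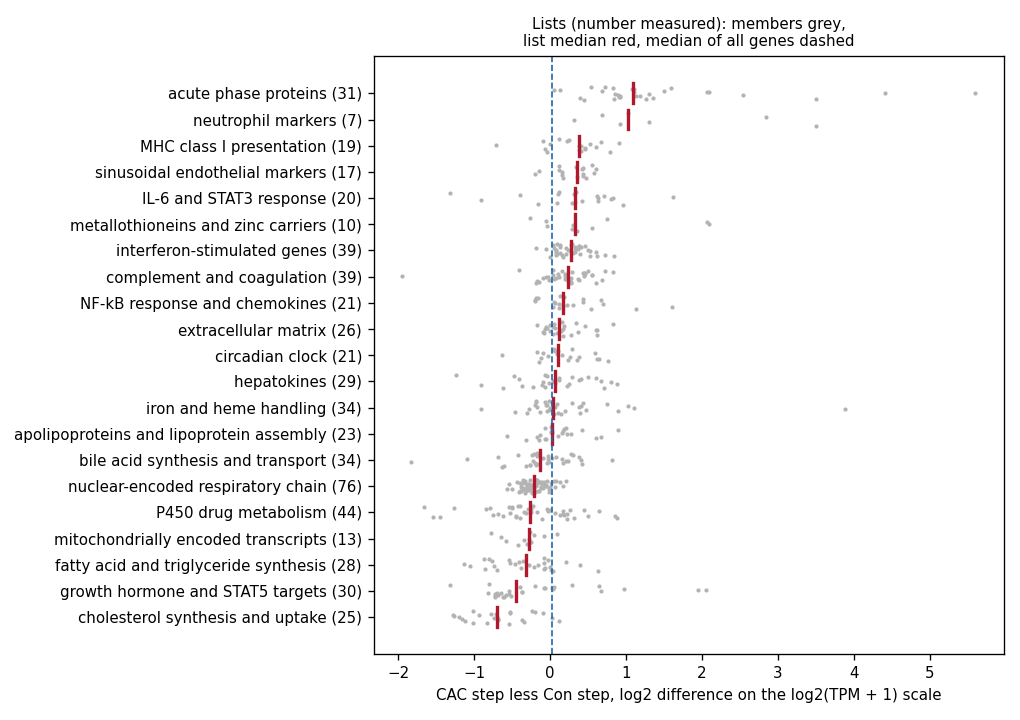
Difference between the CAC and Con steps for every measured member (grey points) of 21 gene lists, with the list median (red) and the median of all 12160 genes (dashed, 0.03), on the log2(TPM + 1) scale. The acute phase and neutrophil lists have medians of 1.08 and 1.02, the latter over the 7 markers tested and 0.32 with no filter on level. The cholesterol list has the lowest of the 21 at -0.70. The pancreatic list, not drawn, had a median of -2.83, with 19 of 19 below 0.

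Set against the arm with melanoma that does not cause cachexia, the same CAC step gave no called gene (limma, 0% of 12160, with 1034 genes, or 8.5%, higher and 591, or 4.86%, lower at an unadjusted p under 0.05). That comparison shares the 10 CAC libraries with the one above, so its values are given side by side only. In NCAC at 4 weeks Ctrb1 was at 187, 806 and 104 TPM in replicates 3, 4 and 5 and at no more than 1.31 TPM in the others. Replicate 4 of that group also had the highest summed B and plasma cell markers, at 1223 TPM, and muscle markers, at 12.96 TPM. Without the libraries of at least 100 TPM Ctrb1 no gene was called and 166 genes had an unadjusted p under 0.05, in place of 1625. That fit kept only replicates 1 and 2 of NCAC at 4 weeks and replicates 2, 3 and 5 of CAC at 2 weeks. The parts of smaller groups and of pancreatic tissue in the lower number were not tested. For the 8 genes the CAC step less the NCAC step lay between 0.26 for Inf2 and 0.87 for Slc37a1, with unadjusted p under 0.05 in 7 of the 8 and adjusted p-values between 0.265 and 0.493. The NCAC step of the 8 was positive throughout, between 0.063 and 0.38, where the Con step was negative. Hp averaged 3547 ± 1385 TPM in NCAC livers at 4 weeks and 2859.5 ± 398 TPM at 2 weeks (SD, n = 5 each). Itih4 averaged 1307 ± 110.4 TPM at 4 weeks and 1179 ± 109 TPM at 2 weeks in that arm. All 31 acute phase genes had a positive CAC step less NCAC step, with a median of 0.66. The cholesterol list had a median of -0.10 and the interferon list one of -0.26 in this comparison. With 2 covariates built from clock genes, 272 genes were called in this comparison, 166 higher and 106 lower. The covariates were centred within each group, so they take up spread within groups and cannot adjust for a clock difference between groups. Of 21 clock genes 7 were higher and 2 lower in this comparison at an unadjusted limma p under 0.05, without the covariates.

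At weeks 6 and 8 the CAC means of 7 of the 8 genes, all but Slc39a1, were each above the week before, given as values with no test. Mean Hp in CAC livers was 4256, 8871, 14410.1 and 16924 TPM at weeks 2, 4, 6 and 8, and 2859.5, 3547, 3555 and 3105 TPM in NCAC and 3006, 2200.4, 2598 and 3009.6 TPM in Con livers at the same weeks. Lbp had CAC means of 55.1, 109.6, 157 and 212 TPM over those weeks, against Con means of 49.4, 37.98, 36.5 and 42.3 TPM. Slc39a1 took another course, with CAC means of 65.2, 81.6, 79.8 and 76.6 TPM, highest at week 4, against Con means of 63.5, 54.03, 55.9 and 61.7 TPM.

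**Figure D5:**
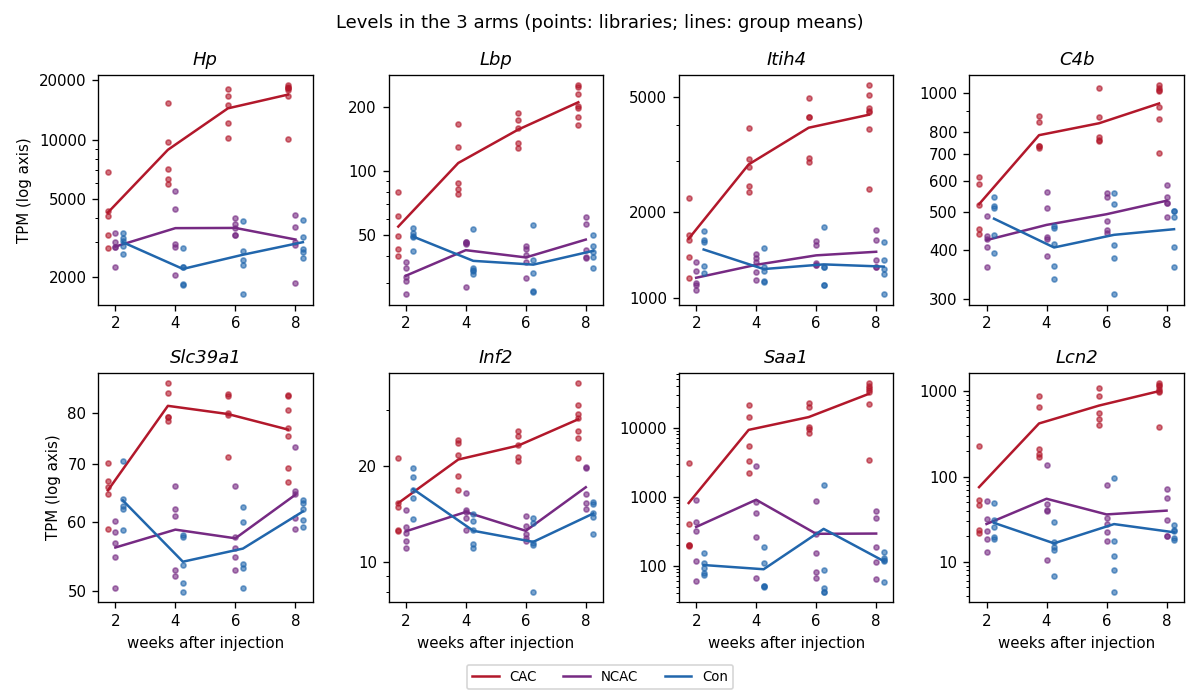
TPM on a log axis over weeks 2, 4, 6 and 8 in the CAC, NCAC and Con arms for Hp, Lbp, Itih4, C4b, Slc39a1, Inf2, Saa1 and Lcn2, with libraries as points and group means as lines. The CAC mean is above both other arms at weeks 4, 6 and 8 in every panel, and for Slc39a1 its highest mean is at week 4.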

How the data were processed

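Liver RNA was sequenced from stranded mRNA libraries, per the labels' protocols. The authors deposited a table of TPM per gene symbol for the whole series, and the submitters' processing notes name the build mm10. No aligner or quantification tool is named (not given in the sources used here). Read numbers are unknown too, so depth is unknown and counting intervals are left out. All columns were mapped to samples by their labels.

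Genes of at least 1 TPM in at least 5 of the 62 libraries were kept (12160 of 47643), and log2(TPM + 1) was fitted with limma 3.58.1 (with an intensity trend) in R 4.3.3 over 12 groups with 50 residual degrees of freedom. A fold change on this scale understates the change of low genes. The main contrast was (CAC 4 weeks minus CAC 2 weeks) minus (Con 4 weeks minus Con 2 weeks), two-sided, with Benjamini-Hochberg adjustment over all 12160 genes. An adjusted p in the text is from this fit. The genes named are those called, up to 12 per direction, whose average reached 5 TPM in some group and whose sign held with any library left out, the 2 to 4 members of smallest p in each list, and a set of followed liver genes. Gm2000, Fga, Fgb, Fgg, Saa2, Lrg1, Serpina10, Serpina3k, Serpina3m, Elane, Mpo, Ltf, S100a8, S100a9, Ttr and Ctrb1 were named after their values were seen. The lists and members were chosen with earlier results of these data known. Gene positions are from GENCODE M21. Scripts were tested on simulated data.

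Alternatives were another pseudocount, other filters and scalings, a fit of the compared groups alone, a replicate block, a minimum log2 difference, clock gene covariates, libraries with pancreatic or muscle transcripts left out, and each library left out in turn. Tables and figures used Python 3.11.15, pandas 2.3.3, NumPy 2.4.6 and matplotlib 3.10.9. Replicates are taken as separate animals, and if they were not, the p-values measure technical spread.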

Additional observations from a re-analysis of the deposited data

Results flagged for a closer look

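Of 104 groups of 5 libraries examined for the followed and called genes, 12 had 1 library far from the others. Chance meets the rule used in about 1 in 20 groups if values are normally distributed. The rule was applied to TPM, which were not checked for that, and in all 12 the library was the highest. The number is therefore not to be read against 1 in 20. In CAC at 2 weeks replicate 3 was the highest for Saa1 (3055 TPM, next 404 TPM), Lcn2 (231 TPM, next 53.1 TPM), Orm2 (578 TPM, next 156 TPM) and Slc37a1 (6.22 TPM, next 2.67 TPM). In the same group replicate 2 had 161 TPM of Cyp7a1, next 68.1 TPM, and replicate 1 had 3.17 TPM of Gdf15, next 1.35 TPM. In CAC at 4 weeks replicate 2 had 101855 TPM of Alb, next 85269.5 TPM. In Con at 4 weeks replicate 1 had 53.5 TPM of Lbp, next 35.0 TPM, and replicate 5 had 93.9 TPM of Igfbp1, next 20.7 TPM. In Con at 2 weeks replicate 1 had 16.5 TPM of Arntl, next 2.93 TPM, and replicate 2 had 5.69 TPM of Slc37a1, next 2.72 TPM, and 4574 TPM of Hamp, next 3050.2 TPM.

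The week 2 to week 4 change differed between the CAC and Con arms, by the test of the difference itself, for 8 genes. The log2 differences were 1.55 for Slc37a1, 1.495 for Hp, 1.35 for Lbp, 1.16 for Cpne8, 1.08 for Itih4, 0.85 for Inf2, 0.83 for C4b and 0.55 for Slc39a1, with limma adjusted p-values between 0.0163 and 0.0463.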

How the results depend on the processing

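The 8 calls changed with the processing, while the signs of their differences did not in any setting run. The main count was 2 with no filter, 3 under median-of-ratios rescaling, 5 with a minimum log2 difference of 1, 0 with the 20 highest genes removed, 0 with only the compared groups fitted, 0 without libraries of at least 100 TPM Ctrb1 or without those and the Acta1 libraries, and 1 without those of at least 10 TPM Ctrb1, the last chosen after seeing the data. The cause was not tested. With a pseudocount of 0.1 it was 8, with robust moderation 8, under quantile normalization 6, with a mean of at least 5 TPM 10, and with clock covariates 11. The CAC step count of 72 became 29, 2, 18, 0, 0 and 13 with no filter, the compared groups alone, the minimum difference, and the 3 Ctrb1 settings in that order, and 291 with clock covariates. With clock covariates the Con step count was 4 in place of 0 and that of CAC less NCAC 272 in place of 0. Those covariates were centred within each group, so they alter the spread used in the tests and not the differences. The count at 2 weeks, 1, became 3 with no filter, 3 with a mean of at least 5 TPM, 5 under median-of-ratios rescaling, 8 under quantile normalization, 289 with the compared groups alone, 0 without Ctrb1 or Acta1 libraries, 0 at the 10 TPM limit and 5 with clock covariates. At 4 weeks 232 became 407 (160 higher, 247 lower) with the 20 highest genes removed, against 158 higher and 74 lower, and 88, 68, 364, 376 and 351 with the compared groups alone, the minimum difference and the 3 Ctrb1 settings. Removing those 20 genes moved the median over all genes at 4 weeks to -0.13.

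With 1 library left out the counts ranged over 0 to 34 for the main comparison, 3 to 122 for the CAC step, 0 to 1 for the Con step, 0 to 62 for CAC less NCAC, 1 to 4 at 2 weeks and 135 to 288 at 4 weeks. With the replicate number as a block the counts were 0 for the main comparison, 0 for the CAC step, 0 at 2 weeks and 22 at 4 weeks. Of 30 same-numbered pairs across groups 7 had correlated deviations over 0.1, with a median of -0.05 and a highest value of 0.32. Whether same-numbered libraries were handled together cannot be told from these values.

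The differences of some uncalled genes changed sign. Igf1 was -0.047 with the 20 highest genes removed, -0.049 without libraries of at least 100 TPM Ctrb1 and without Ctrb1 or Acta1 libraries, -0.16 at the 10 TPM limit and between -0.038 and 0.11 with 1 library left out. Pck1 was -0.033 in the 100 TPM setting and without Ctrb1 or Acta1 libraries. Gdf15 was 0.17 in those settings, 0.16 at the 10 TPM limit and between -0.17 and 0.25 with 1 library left out. With 1 library left out Cyp7a1 lay between -0.83 and 0.17 and Fgf21 between -0.22 and 0.15. Without read numbers, the precision of genes near 1 TPM cannot be given.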
